A study of Mus musculus with 4 samples.

Results

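The 53 genes described here encode the machinery that carries a cell through mitosis: the kinases and cyclins that start it, the kinetochore and its checkpoint, the motors of the spindle, the proteins that separate sister chromatids and those that divide the cell. They were taken from a list of names, with no threshold on their values, by a choice made with earlier results of these data known, and all 53 were found among the 16755 genes of the deposited table. The libraries were bulk RNA-seq of alveolar macrophages, the resident phagocytes of the lung's air sacs, sorted from mouse lung by their surface markers. There were 2 libraries of wild-type mice (WT) and 2 of osteopontin knock-out mice (OPNKO, Spp1-/-), which lack the secreted matrix glycoprotein osteopontin encoded by Spp1, both on the C57BL6 strain. All 4 carry the treatment tag Bleomycin, an agent used to bring about lung injury and scarring. Day 14 is named in the column headers, while the protocol text speaks of no treatment. The sources used here do not give the age or sex of the mice, or whether animals were pooled. Since nothing says that the libraries of a genotype are from different animals, the p-values measure only the spread between libraries, and that spread may be technical. The genotype tag and the title disagreed for 2 of the 4 samples. Groups were taken from the titles, which the column names share, and Spp1 followed them, at normalized read counts of 545719 and 606517 in the WT libraries and 4106 and 3847 in OPNKO.

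Depth was 35793800 to 44759630 counted reads per library. A normalized read count is the number of reads of a gene divided by 1 scaling factor per library, as the authors deposited it. Throughout, the first of 2 values of a genotype is replicate 1 and the second is replicate 2. Markers that define the sorted cells were present in every library. Siglecf, the lectin used to recognise mouse alveolar macrophages, had 8521 and 6374 in the WT libraries and 8057 and 8876 in OPNKO, and Marco, a scavenger receptor, had 9708 and 11671 in the WT libraries and 7918 and 11494 in OPNKO. Of 16 alveolar macrophage markers listed, 15 were in the table and none of them was at 0. In bulk RNA, fewer dividing cells and less mitotic RNA per dividing cell cannot be told apart.

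As background, alveolar macrophages maintain themselves largely by dividing in place, and lung injury is followed by renewed division of the cells that remain and of cells that arrive from blood. Most mitotic genes are transcribed in a burst late in the cell cycle. In resting cells the DREAM complex holds them silent, and in dividing cells B-Myb (Mybl2) and FoxM1 (Foxm1), bound to the MuvB core, activate them. These complexes reach the promoters through a short element close to the transcription start, the cell cycle genes homology region or CHR, usually near boxes bound by the factor NF-Y.

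The promoters of the mitotic genes are shown to describe how many of them hold these elements. Whether the elements have a part in the differences between libraries described further on was not tested. RefSeq promoter windows, from 250 bases before to 50 bases after a transcription start on GRCm38.p6, were matched by symbol for 44 of the 53 genes; the others were Aurkb, Ccna2, Cdc25c, Foxm1, Incenp, Kif20a, Smc4, Spc24 and Tpx2. Both strands were searched for 6 spellings, none of which contains another, and a gene counted once if any of its windows held a match. The CHR spelling TTTGAA was found in 31 of the 44 (70.5%), against 14.4% of 10736 tested genes with a window and 17.9% of all 32851 windows. It lay within 50 bases of the start in 28 of the 44 (63.6%), against 3.77% of the tested genes. The NF-Y box CCAAT was found in 32 (72.7%, against 42.3% of the tested genes and 37.4% of all windows), and 20 had a window with at least 2 of them (45.5%, against 15.9% and 11.7%). Both CCAAT and TTTGAA were in 26 (59.1%, against 5.87% and 6.95%). The other CHR spellings were rarer, with TTTAAA in 9 (20.5%, against 11.2% and 13.2%) and TTCGAA in 4 (9.09%, against 2.47% and 1.56%). The E2F spellings TTTCCCGC (1 gene, 2.27%, against 2.19% and 1.07%) and TTTGGCGC (2 genes, 4.55%, against 1.05% and 0.514%) were rare in both. A match is a description of the letters in this window and does not show that a factor binds there.

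**Figure D1:**
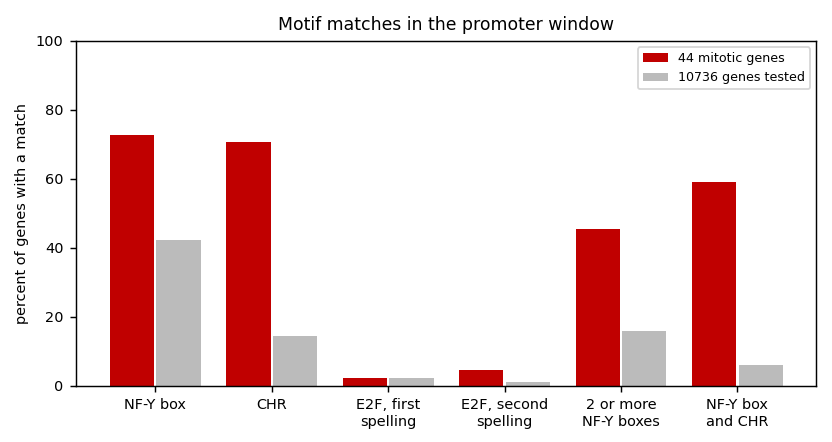
Percent of genes with a motif match in the promoter window (vertical axis), for the 44 mitotic genes with a window (red) and the 10736 tested genes with one (grey). CHR is TTTGAA and the NF-Y box is CCAAT; the 2 E2F spellings are TTTCCCGC and TTTGGCGC. The pair of NF-Y box and CHR was in 59.1% of the mitotic genes and 5.87% of the tested genes.

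For each role group below 1 window is printed, 5′ to 3′ on the strand of the gene: that of the gene with the greatest mean normalized read count, not divided by length, among those with both CCAAT and TTTGAA. That choice ranks no levels, and per kilobase of exon other genes of a role can be higher. Capitals mark CCAAT and TTTGAA on either strand, so that ATTGG and TTCAAA are the same boxes read on the other strand. The windows are chr15:102296043-102296342 (plus strand) for Espl1, chr10:69352863-69353162 (minus strand) for Cdk1, chr2:118597961-118598260 (plus strand) for Bub1b, chr1:189688037-189688336 (minus strand) for Cenpf, chr19:37376132-37376431 (plus strand) for Kif11, chr7:80294201-80294500 (plus strand) for Prc1, chr11:99024140-99024439 (minus strand) for Top2a and chr7:135716330-135716629 (minus strand) for Mki67. The starts of the nearest CCAAT and TTTGAA lay 9 bases apart in Cdk1, 17 in Espl1 and 153 in Bub1b.
Espl1: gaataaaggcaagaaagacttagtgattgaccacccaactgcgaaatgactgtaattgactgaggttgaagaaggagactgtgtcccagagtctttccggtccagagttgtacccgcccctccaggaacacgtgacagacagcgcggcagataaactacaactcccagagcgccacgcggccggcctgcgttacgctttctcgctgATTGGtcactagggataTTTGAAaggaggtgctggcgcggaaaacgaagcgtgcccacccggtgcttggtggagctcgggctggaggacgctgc
Cdk1: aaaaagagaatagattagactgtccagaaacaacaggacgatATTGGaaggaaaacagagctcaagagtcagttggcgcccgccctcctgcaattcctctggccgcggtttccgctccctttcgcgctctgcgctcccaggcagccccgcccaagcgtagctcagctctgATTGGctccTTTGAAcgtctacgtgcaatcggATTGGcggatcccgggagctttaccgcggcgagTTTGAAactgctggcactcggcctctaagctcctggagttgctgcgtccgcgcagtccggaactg
Bub1b: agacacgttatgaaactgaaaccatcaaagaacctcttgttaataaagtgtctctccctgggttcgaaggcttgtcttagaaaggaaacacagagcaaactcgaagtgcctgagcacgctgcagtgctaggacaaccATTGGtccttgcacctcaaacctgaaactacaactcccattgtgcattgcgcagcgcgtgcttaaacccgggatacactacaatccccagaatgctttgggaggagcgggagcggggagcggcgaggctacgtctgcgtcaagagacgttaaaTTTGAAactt
Cenpf: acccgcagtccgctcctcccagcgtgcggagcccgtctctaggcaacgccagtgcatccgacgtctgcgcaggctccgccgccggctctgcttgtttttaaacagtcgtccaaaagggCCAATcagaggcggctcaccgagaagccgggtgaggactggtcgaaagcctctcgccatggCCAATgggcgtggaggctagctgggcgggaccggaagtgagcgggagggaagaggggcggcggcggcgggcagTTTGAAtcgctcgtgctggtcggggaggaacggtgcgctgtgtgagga
Kif11: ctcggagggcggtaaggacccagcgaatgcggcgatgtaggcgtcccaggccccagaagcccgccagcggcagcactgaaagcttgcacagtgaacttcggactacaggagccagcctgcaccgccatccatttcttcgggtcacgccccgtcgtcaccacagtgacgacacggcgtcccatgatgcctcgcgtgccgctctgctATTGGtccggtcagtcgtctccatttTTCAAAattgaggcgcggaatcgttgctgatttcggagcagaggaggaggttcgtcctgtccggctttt
Prc1: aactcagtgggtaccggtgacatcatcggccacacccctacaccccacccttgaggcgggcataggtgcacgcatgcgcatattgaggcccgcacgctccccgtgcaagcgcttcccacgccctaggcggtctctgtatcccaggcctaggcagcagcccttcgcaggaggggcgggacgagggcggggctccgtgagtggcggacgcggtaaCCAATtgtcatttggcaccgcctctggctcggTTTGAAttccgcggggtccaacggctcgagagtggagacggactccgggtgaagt
Top2a: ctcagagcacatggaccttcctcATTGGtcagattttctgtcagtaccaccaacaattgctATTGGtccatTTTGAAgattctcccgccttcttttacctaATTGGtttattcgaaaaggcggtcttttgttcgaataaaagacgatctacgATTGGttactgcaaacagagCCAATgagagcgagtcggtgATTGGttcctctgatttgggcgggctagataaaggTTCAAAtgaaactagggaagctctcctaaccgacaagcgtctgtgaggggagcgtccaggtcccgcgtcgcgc
Mki67: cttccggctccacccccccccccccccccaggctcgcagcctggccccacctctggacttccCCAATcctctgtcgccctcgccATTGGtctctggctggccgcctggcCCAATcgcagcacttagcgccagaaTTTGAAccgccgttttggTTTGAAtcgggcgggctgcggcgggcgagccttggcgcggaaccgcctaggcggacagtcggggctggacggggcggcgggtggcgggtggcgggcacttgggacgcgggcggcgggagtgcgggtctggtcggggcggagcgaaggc

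All 53 genes were well above the limit of detection. The lowest count in any library was 83 reads, for Cenpk, and mean normalized read counts ran from 117 (Cenpk) to 7292 (Mki67) with a median of 827. Those counts are not divided by length and do not rank the genes. Per kilobase of exon, Smc4 was the highest, with a mean of 1192 normalized reads per kilobase over the 4 libraries (89.6th percentile of all tested genes), followed by Bub1b (876), Incenp (727), Mki67 (725) and Top2a (675). Cenpk was the lowest, with 22.4 (28.4th percentile), below Cdc25c (30.1) and Ttk (56.5). The median of the 53 stood at the 56.9th percentile, near the middle of the genes expressed in these sorted cells.

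The first comparison asked whether mitotic genes differed between OPNKO and WT. Of the 53, 1 gene passed a limma adjusted p of 0.05, Espl1, which was lower in OPNKO, while 4.32% of all 16431 tested genes passed (1.98% lower and 2.33% higher). None of the 53 passed in the higher direction by limma, by edgeR's quasi-likelihood test or by DESeq2. At an unadjusted p under 0.05, limma had 4 lower and 3 higher, or 13.2% of the 53, against 21.2% of all tested genes. The log2 fold changes of the 53, on the log2(value + 1) scale used throughout, had a median of -0.09 (all tested genes: -0.000558) and ran from -0.56 (Espl1) to 0.35 (Cenpf). Of the 53, 38 (71.7%) were negative, and 39 to 41 under the other scalings, against 8223 of the 16431 tested genes. For 45 of the 53 the 95% interval of the fold change lay inside 1.5-fold in both directions, and for all 53 it lay inside 2-fold. The 8 whose interval reached past 1.5-fold were Cdc25c, Cenpf, Cenpk, Nuf2, Spc24, Ube2c, Espl1 and Mybl2.

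For 37 of the 53 the libraries of the 2 genotypes overlapped. Both OPNKO libraries lay below both WT libraries for 12 of the 53 and above them for 4, together 30.2%, while 52.7% of all tested genes had groups that did not overlap (4113 of 16431 below and 4549 above). The smallest two-sided p of an exact permutation test with 2 libraries against 2 is 0.333, and tests were therefore taken from limma's fit over all genes. The authors' deposited table also had 1 of the 53 past an adjusted p of 0.05, Espl1 (log2 fold change -0.56, Wald test, adjusted p = 0.00489), against 4.34% of its 16755 genes.

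**Figure D2:**
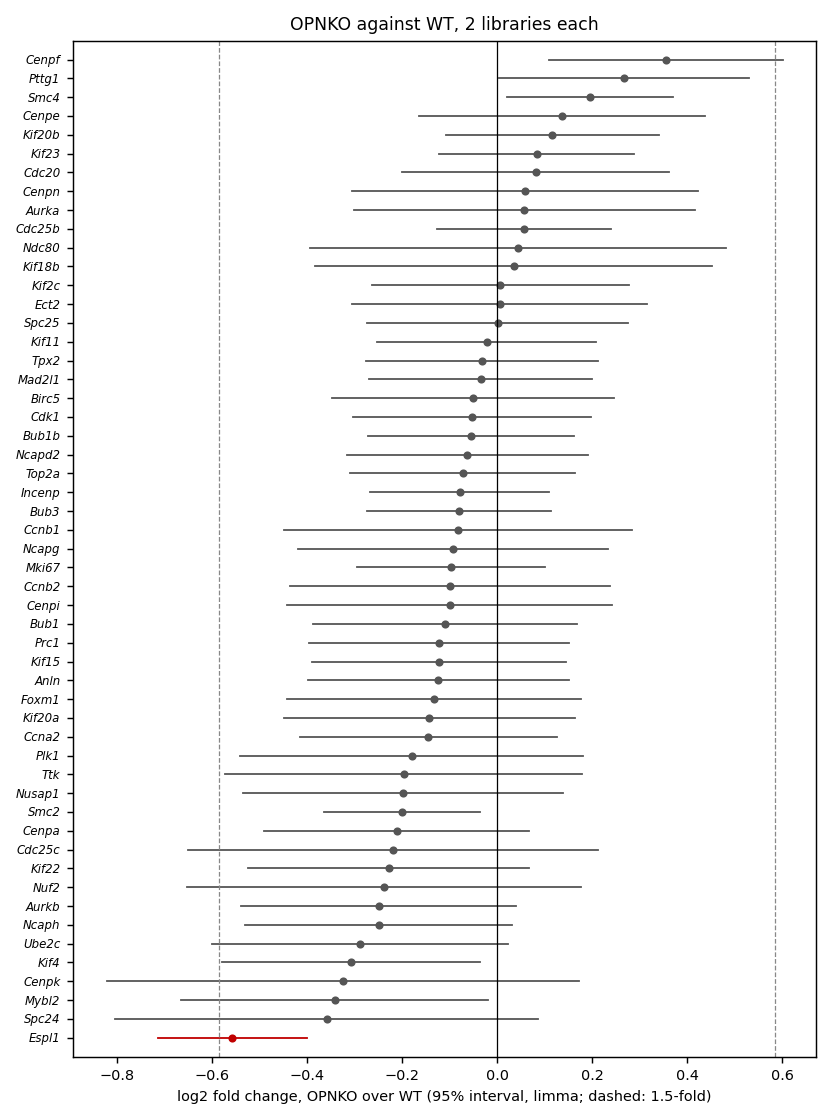
Log2 fold change of OPNKO over WT for each of the 53 mitotic genes (horizontal axis), ordered by size, from 2 libraries per genotype; points are limma estimates, lines their 95% intervals, dashed lines mark 1.5-fold, and red marks an adjusted p under 0.05. Espl1, at -0.56, is the one red gene, and Spc24 (-0.36) is the next lowest.

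The proteins that end metaphase held the gene that fell. Espl1 (ENSMUSG00000058290; chromosome 15, 102296266 to 102324357, plus strand, in GENCODE M21 on GRCm38) encodes separase, the protease that cuts cohesin so that sister chromatids part. It had normalized read counts of 2435 and 2355 in the WT libraries and 1619.8 and 1634 in OPNKO. Both OPNKO libraries lay below both WT libraries, and the 2 libraries of each genotype lay close together. The mean fell from 2395 ± 56.8 to 1627 ± 10.3 (SD, n = 2), which is 67.9% of the WT mean, a log2 fold change of -0.56 ± 0.07 (SE; 95% interval -0.71 to -0.40; limma adjusted p = 0.00734). No exon of another annotated gene overlaps those of Espl1. The call was lost without WT replicate 1 and without WT replicate 2. It was also lost with no filter on low values (limma adjusted p = 0.0844) and without a trend in limma's prior (0.204). In these 4 settings the log2 fold change was -0.53 to -0.58. Calls were lost across all tested genes too: 1 passed with no filter and 0 without the trend, against 709 in the main test. With edgeR's quasi-likelihood test on recovered reads Espl1 had an adjusted p of 0.00921, and with DESeq2 an adjusted p of 3.92e-06.

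Pttg1 encodes securin, which binds separase and holds it inactive until anaphase. It had 714 and 675 in the WT libraries and 765 and 914 in OPNKO. Both OPNKO values were above both WT values, the opposite order to Espl1, but the log2 fold change of 0.27 (0.0041 to 0.53) did not pass (limma adjusted p = 0.229). Ube2c, the ubiquitin-conjugating enzyme of the anaphase-promoting complex, had 649 and 636 in the WT libraries and 592 and 467 in OPNKO and a log2 fold change of -0.29 with a limma adjusted p of 0.268, with both OPNKO values below both WT values. Of Ube2c's exon bases, 22.8% overlap those of Tnnc2 on the opposite strand, and the sources used here do not say whether counting used strand. Cdc20, the activator of that complex, had a log2 fold change of 0.08 (-0.20 to 0.36).

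**Figure D3:**
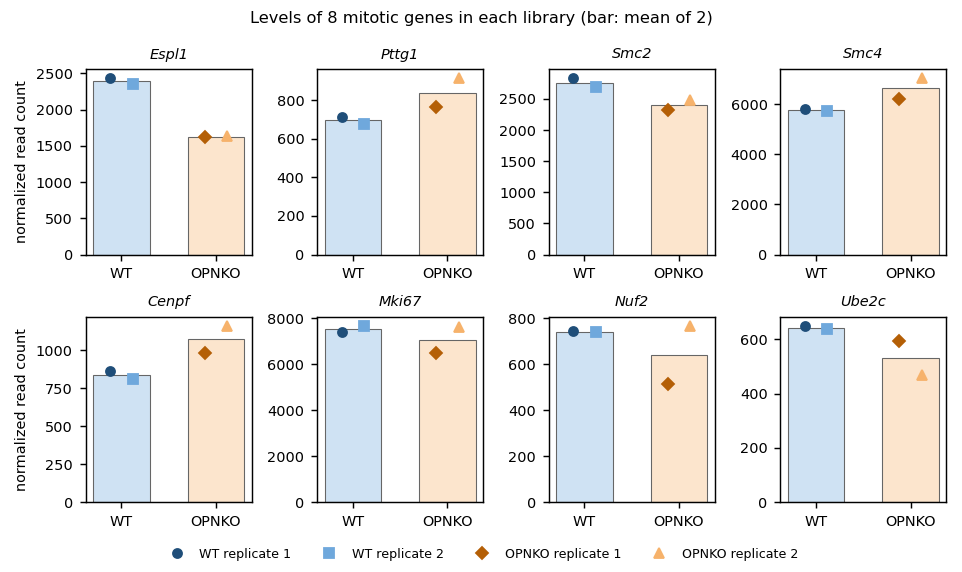
Normalized read counts (vertical axes, from 0) of 8 mitotic genes in the 2 WT and 2 OPNKO libraries; bars are means of 2 libraries and points are single libraries. Espl1 falls from 2435 and 2355 to 1619.8 and 1634 with little spread, while in Nuf2 the OPNKO libraries stand at 516 and 768, on either side of WT.

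Among the 8 kinases, phosphatases and cyclins of mitotic entry, none passed in OPNKO against WT, and their adjusted p ran from 0.523 to 0.870. Cdk1, the kinase that drives entry into mitosis, had 1073 and 979.8 in the WT libraries and 909.8 and 1074 in OPNKO and a log2 fold change of -0.05 (95% interval -0.30 to 0.20, given in the same way for other genes). Its partner cyclin B1, Ccnb1, had 599 and 558 in the WT libraries and 467 and 639 in OPNKO. In both genes OPNKO replicate 1 was the lowest library and OPNKO replicate 2 the highest, so the genotypes overlapped. Cyclin A2, Ccna2, which acts from S phase into early mitosis, had 1954 and 1872 in the WT libraries and 1532 and 1953 in OPNKO and a log2 fold change of -0.14 with a limma adjusted p of 0.523; of its exon bases 12.5% overlap those of Exosc9 on the opposite strand. Cdc25b, the phosphatase that removes inhibitory phosphates from Cdk1, had the narrowest range of the 8 in proportion to its level, with 2096 and 1948 in the WT libraries and 2014 and 2193 in OPNKO. The kinases Plk1 and Aurka, which mature the centrosomes, had log2 fold changes of -0.18 and 0.06.

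The 5 genes of the spindle checkpoint, which delays anaphase until every kinetochore is attached, had log2 fold changes from -0.20 to -0.03, all 5 negative and none called. Bub1b, which encodes the checkpoint protein BubR1, had 3969.9 and 3652 in the WT libraries and 3374 and 3977 in OPNKO. Bub3, its binding partner, had 2794 and 2814 in the WT libraries and 2468 and 2849 in OPNKO. Ttk, the kinase Mps1 that starts checkpoint signalling, had 294 and 298 in the WT libraries and 229 and 290.0 in OPNKO and the most negative log2 fold change of the 5, -0.20 (-0.57 to 0.18; limma adjusted p = 0.533). OPNKO replicate 1 was the lowest of the 4 libraries in all 5 genes.

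Centromere and kinetochore genes, which build the site where chromosomes meet the spindle, split evenly, 5 negative and 5 positive of 10, with none called. Cenpf, a large protein of the outer kinetochore, had the highest log2 fold change of all 53 genes, 0.35 (0.11 to 0.60; limma adjusted p = 0.111), at 863 and 810.0 in the WT libraries and 985 and 1161 in OPNKO. Both OPNKO libraries lay above both WT libraries. Cenpe, a kinetochore motor, had 1268 and 1267 in the WT libraries and 1212 and 1602 in OPNKO, with OPNKO replicate 2 above the 3 other libraries. Ndc80 and Nuf2 form the end of a complex that grips microtubules, and Spc24 and Spc25 the end that anchors it. Ndc80 had 403 and 409 in the WT libraries and 344 and 509 in OPNKO, and Nuf2 had 745 and 741 in the WT libraries and 516 and 768 in OPNKO. In both, the WT libraries nearly coincided and the OPNKO libraries lay on either side of them. Spc24 had 269.9 and 205 in the WT libraries and 194 and 173 in OPNKO. Both OPNKO values were below both WT values, but the log2 fold change of -0.36 with a limma adjusted p of 0.330 was no larger in size than the log2 difference between the WT libraries, -0.40. Cenpa, the histone H3 variant that marks centromeres, had 1093 and 923 in the WT libraries and 937 and 803 in OPNKO, and its genotypes overlapped.

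Of 8 spindle motors and microtubule proteins, 6 had a negative fold change and none was called. Kif11, the motor that pushes the spindle poles apart, had 1679 and 1755 in the WT libraries and 1544 and 1849.7 in OPNKO, and Tpx2, which nucleates microtubules and activates Aurora A, had 1607 and 1706 in the WT libraries and 1468 and 1786 in OPNKO. Kif4, a chromosome-bound motor that also acts with condensin and in the midzone, had 589 and 654 in the WT libraries and 471 and 533 in OPNKO and the smallest p of the group (log2 fold change -0.31, -0.58 to -0.04; limma adjusted p = 0.188). Both OPNKO libraries were below both WT libraries for Kif4, of whose exon bases 15.1% overlap those of Pdzd11 on the opposite strand. Kif18b, a motor that shortens microtubules, had 326 and 361 in the WT libraries and 298 and 414 in OPNKO, and Nusap1, which bundles spindle microtubules, had 1421 and 1383 in the WT libraries and 1039 and 1436 in OPNKO. For Kif18b and Nusap1 the OPNKO libraries differed more from each other than the genotype means did.

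The chromosomal passenger complex corrects wrong attachments and then, in the midzone, directs cytokinesis. None of its genes and of the cytokinesis genes passed, 9 in all. The kinase gene of the complex, Aurkb, had 865 and 925 in the WT libraries and 672 and 843 in OPNKO and a log2 fold change of -0.25 (-0.54 to 0.04; limma adjusted p = 0.301). Its scaffold Incenp had 3342 and 3120.1 in the WT libraries and 2878 and 3246 in OPNKO. Prc1, which bundles the midzone microtubules, had 1781 and 1921 in the WT libraries and 1508 and 1914 in OPNKO, and of its exon bases 11.1% overlap those of Rccd1 on the opposite strand. The log2 fold changes of the 9 ran from -0.25 to 0.12, with Kif20b, a motor of late cytokinesis, at the upper end and both of its OPNKO libraries above both WT libraries.

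The 2 SMC subunits of condensin, the ring complex that compacts mitotic chromosomes, had fold changes of opposite sign. Smc2 had 2835 and 2692 in the WT libraries and 2328 and 2481 in OPNKO, a log2 fold change of -0.20 (-0.37 to -0.04; limma adjusted p = 0.162). Smc4 had 5823 and 5744 in the WT libraries and 6227 and 7043 in OPNKO, a log2 fold change of 0.20 (0.02 to 0.37; limma adjusted p = 0.196). Neither passed, although in each gene the genotypes did not overlap. The difference between the 2 genes was not tested. The other condensin subunits, Ncapd2, Ncapg and Ncaph, had log2 fold changes of -0.06, -0.09 and -0.25. Top2a, the topoisomerase that untangles sister chromatids, had 5949.9 and 6498 in the WT libraries and 5353 and 6527 in OPNKO.

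Of the 3 remaining genes none passed. Mki67, the proliferation marker Ki-67 that coats mitotic chromosomes, had 7386 and 7673 in the WT libraries and 6507 and 7603 in OPNKO, a log2 fold change of -0.10 (-0.30 to 0.10; limma adjusted p = 0.555). OPNKO replicate 1 was the lowest library and OPNKO replicate 2 lay between the WT libraries. Foxm1 had 954 and 1033 in the WT libraries and 793 and 1032 in OPNKO, in the same order. Mybl2, which encodes the activator B-Myb, had 316 and 335 in the WT libraries and 269 and 244 in OPNKO, both OPNKO values below both WT values (log2 fold change -0.34, -0.67 to -0.02; limma adjusted p = 0.214).

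**Figure D4:**
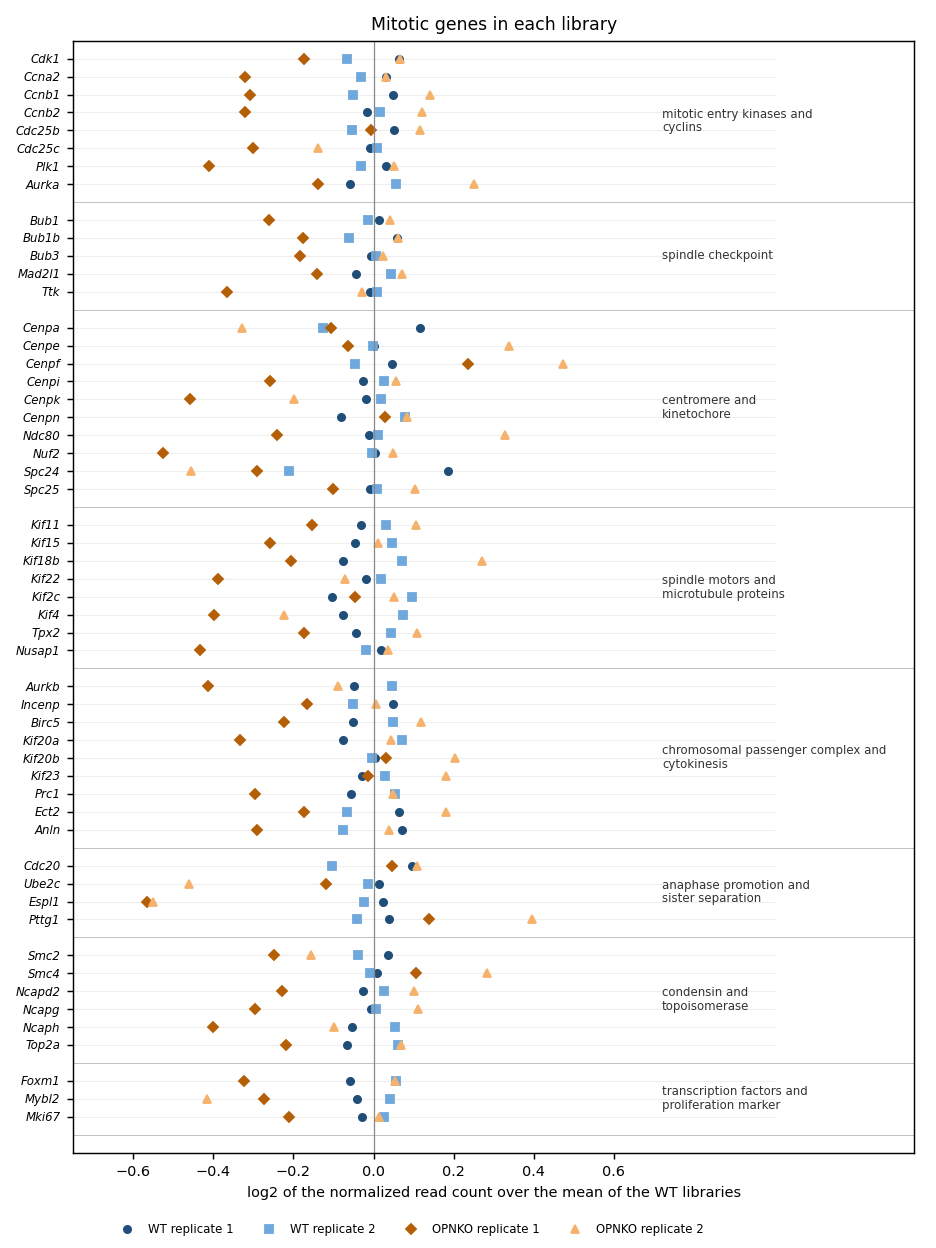
Each library's normalized read count of the 53 mitotic genes, as log2 of its ratio to the mean of the 2 WT libraries (horizontal axis), grouped by role; circles and squares are WT replicates 1 and 2, diamonds and triangles OPNKO replicates 1 and 2. The diamonds of OPNKO replicate 1 are the lowest point in 40 of the 53 genes and the triangles of OPNKO replicate 2 the highest in 31.

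The second comparison set the 2 OPNKO libraries against each other. OPNKO replicate 2 was higher than OPNKO replicate 1 for 49 of the 53 (92.5%). That share was 48.6% over all tested genes and 47.9% over those whose mean value reached 50. With 1 library on each side there is no test, and replicates of a genotype have no order, so these values describe the 2 libraries. The median difference was 0.27 on the log2 scale, while the median of all tested genes was -0.01. At least 1.2-fold higher were 27 of the 53 (50.9%), against 16.1% of all tested genes and 7.39% of the 11624 genes whose mean value reached 50, as it did for all 53. At least 1.2-fold lower was 1 gene, Ube2c, against 19.5% of all tested genes, and none of the 53 differed by 1.5-fold or more. That 19.5% includes genes of low level. The share lower among genes whose mean value reached 50 is not given here. The 95% counting interval of the ratio of the 2 libraries (exact binomial) lay above 1 for 42 of the 53 and below 1 for 2, Cenpa and Ube2c. Such intervals cover counting error only and compare these libraries, not conditions. They were computed for the 53 genes alone, so no share over all tested genes stands beside these counts.

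The greatest gaps were in the kinetochore and the spindle. Nuf2 was 1.49-fold higher in OPNKO replicate 2 (counting interval 1.32 to 1.68), Ndc80 1.48-fold (1.27 to 1.73), Kif18b 1.39-fold (1.18 to 1.64) and Nusap1 1.38-fold (1.27 to 1.51). Against the common direction, the ratio was 0.788 for Ube2c (0.688 to 0.902), 0.857 for Cenpa (0.772 to 0.951), 0.892 for Spc24 (0.707 to 1.12) and 0.906 for Mybl2 (0.745 to 1.10). The last 2 intervals include equal levels. For Espl1, the gene called between genotypes, the ratio was 1.01 (0.935 to 1.09). By role, the median log2 difference was 0.37 in the 8 entry genes, 0.33 in the 9 passenger and cytokinesis genes, 0.29 in the 6 condensin and topoisomerase genes, 0.27 in the 8 spindle genes, 0.25 in the 10 kinetochore genes, 0.24 in the 5 checkpoint genes, 0.22 in Foxm1, Mybl2 and Mki67, and 0.04 in the 4 anaphase genes. The 31 genes with TTTGAA in the promoter window had a median of 0.24 and the 13 without it 0.30. Some of the 13 hold another CHR spelling, such as TTTAAA in Ccnb1 and TTCGAA in Bub1. A part of these elements in the differences was not tested.

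The same comparison within WT gave smaller differences. WT replicate 2 was higher than WT replicate 1 for 30 of the 53 (56.6%). That share was 46.1% over all tested genes and 40.0% over those whose mean value reached 50. The median log2 difference of the 53 was 0.02, with a range of -0.40 (Spc24) to 0.20 (Kif2c). At least 1.2-fold higher were 0 of the 53 (20.2% of all tested genes, and 7.79% of those whose mean value reached 50). At least 1.2-fold lower was 1, Spc24 (12.4% of all tested genes, a share that likewise includes genes of low level). The WT counting interval lay above 1 for 5 of the 53 and below 1 for 8, again with no share over all tested genes. The difference in spread between the genotypes was not tested.

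**Figure D5:**
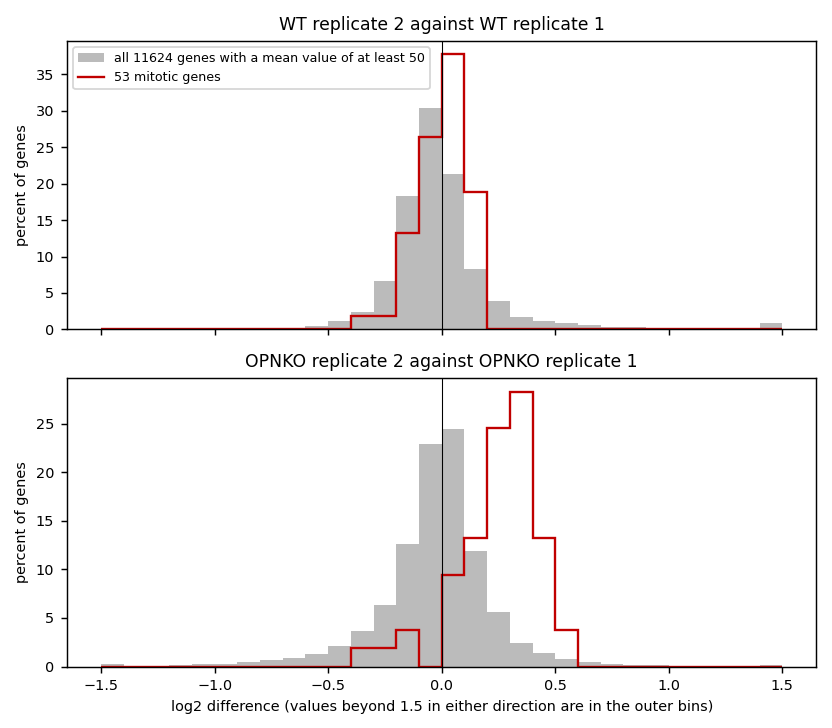
Distribution of the log2 difference between the 2 libraries of a genotype (horizontal axis; percent of genes on the vertical axis), for WT (top) and OPNKO (bottom), in the 53 mitotic genes (red) and all 11624 genes whose mean value reached 50 (grey). In WT the mitotic genes centre at 0.02, and in OPNKO at 0.27.

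Summed over the 53 genes, normalized read counts were 75049 and 75258 in WT and 66017 and 78213 in OPNKO, which is 0.166% and 0.172% of all values of the WT libraries and 0.145% and 0.176% of the OPNKO libraries. The OPNKO libraries thus stood on either side of WT, and the mean of OPNKO was 0.960 of the mean of WT (75154 ± 148 in WT and 72115 ± 8624 in OPNKO; SD, n = 2). OPNKO replicate 1 was below both WT libraries in 43 of the 53 genes (35.7% of all tested genes) and was the lowest of the 4 libraries in 40 (22.4%). OPNKO replicate 2 was above both WT libraries in 31 (39.0% of all tested genes). The median fold change of the 53 against WT followed the OPNKO library used. Without OPNKO replicate 2 it was -0.23, with 47 of 53 negative (88.7%, against 47.7% of all tested genes) and 21 at an unadjusted limma p under 0.05 (39.6%, against 16.9%). Without OPNKO replicate 1 it was 0.06, with 13 negative (24.5%, against 50.4%) and 9 at an unadjusted p under 0.05 (17.0%, against 19.6%). Espl1 was the 1 gene of the 53 called in both settings (limma adjusted p = 0.0204 without OPNKO replicate 2 and 0.0282 without OPNKO replicate 1).

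Other mitosis genes, not among the 53, were taken from a list. Of 76 listed, such as Hmmr, Kif14 and Cep55, all were tested and none passed in either direction by limma, edgeR or DESeq2. An unadjusted limma p under 0.05 was found for 12 of the 76, against 21.2% of all tested genes. Their median log2 fold change was -0.09, and replicate 2 of OPNKO exceeded replicate 1 for 71 of the 76, at a median log2 difference of 0.21. For this list and those that follow, the share over all tested genes was 48.6%. Of 40 DNA replication genes, which act in S phase just before mitosis, 3 fell and none rose by limma. Of all tested genes, 1.98% fell and 2.33% rose. An unadjusted limma p under 0.05 was found for 19 of the 40, against 21.2% of all tested genes, and edgeR called 3 and DESeq2 called 7. Log2 fold changes are in parentheses here and for the lists that follow. The 3 that fell by limma were the helicase subunit gene Mcm5 (-0.53), the cyclin E2 gene Ccne2 (-0.56) and the flap endonuclease gene Fen1 (-0.38). The list's median log2 fold change was -0.26, with 38 of 40 negative and 33 higher in OPNKO replicate 2. Of 31 cell cycle inhibitors and members or partners of the DREAM and MuvB complexes, Ccng2, an unconventional cyclin linked to cell cycle arrest, rose from 1428 ± 28.9 in WT to 2114 ± 18.1 in OPNKO (SD, n = 2), a log2 fold change of 0.57 with a limma adjusted p of 0.00734, and none fell. That list's median was 0.06, and 12 of the 31 were higher in OPNKO replicate 2, at a median log2 difference of -0.03.

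Markers of other cells moved beside these results. Markers of T cells and thymocytes rose in OPNKO for 13 of 20, among them Rag1 (2.79), Dntt (2.62), Cd8a (2.34) and Bcl11b (1.63), and none of the 20 fell or was at 0. Their summed level was 6327 and 7035 in the WT libraries and 15528 and 24019.7 in OPNKO. For all 20, replicate 2 of OPNKO exceeded replicate 1, at a median log2 difference of 0.68, the same direction as the mitotic genes, and their part in that difference was not tested. The summed level of these markers was above WT in both OPNKO libraries. That of the mitotic genes was below WT in OPNKO replicate 1 and above it in OPNKO replicate 2. Which cells the mitotic RNA came from was not tested. Alveolar macrophage markers were higher in OPNKO replicate 2 for 12 of 15 (median log2 difference 0.12). OPNKO over WT, the median log2 fold change of that list was 0.17. Their summed level was 1116093 and 1094687 in WT and 803621 and 922634 in OPNKO, of which Chil3 made up 50.8%. Without Chil3, a sum added after the values were seen, it was 481243 and 450897 in WT and 492511 and 511161 in OPNKO, so the direction of the sum rested on that gene. Of the 15, Pparg (0.41) and Krt79 (1.38) rose, and Car4 (-0.68) and Ear2 (-0.39) fell. Of 10 monocyte markers Ccr2 (-1.14) and Vcan (-1.30) fell, and 4 of the 10 were higher in OPNKO replicate 2. Their summed level was 472586 and 464336 in WT and 485856 and 421865 in OPNKO, of which Fn1 made up 86.5%. Without Fn1, likewise added, it was 68842 and 70574 in WT and 57256 and 53185 in OPNKO, lower in both OPNKO libraries.

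The remaining marker lists, for cells a lung sort could also hold, were these. Of 12 B and plasma cell markers 4 fell (Jchain, -2.92; Igha, -3.31; Igkc, -2.54; Mzb1, -1.66), and 1 of the 12 was higher in OPNKO replicate 2. Of 10 dendritic cell markers Fscn1 (-1.94) and Mgl2 (-1.27) fell, with 4 of 10 higher in OPNKO replicate 2. Of 7 neutrophil markers tested, from 10 listed, Retnlg (-3.14) fell and Cxcr2 (0.75) rose, with 5 of 7 higher in OPNKO replicate 2. Of 10 genes listed as fibroblast markers Thy1 (1.42) rose. The other 9 had negative fold changes that did not pass, and the list's median was -1.15. Thy1 was the 1 gene of this list higher in OPNKO replicate 2. Which cells its RNA came from was not tested. Without Thy1, likewise added, the summed level was 1094 and 5823 in WT and 925 and 605 in OPNKO. Of 10 endothelial markers Vwf (0.38) rose, while the other 9 were negative and did not pass, with a median of -0.70 for the list. Vwf made up 83.7% of the list's summed level. Without Vwf, likewise added, that level was 604.4 and 2170.5 in WT and 779.7 and 663.4 in OPNKO. WT replicate 1 thus lay below both OPNKO libraries. Cdh1 (-0.54) of 12 epithelial markers fell, with a median of -0.08 for the list. In these 3 lists 1, 3 and 6 genes were higher in OPNKO replicate 2. Of 3 erythroid markers tested, from 8 listed, none passed by limma, edgeR or DESeq2, 0 had an unadjusted p under 0.05 and 0 were higher in OPNKO replicate 2. Between the WT libraries, replicate 2 over replicate 1, the median log2 difference was 2.26 for fibroblast, 2.00 for erythroid, 1.92 for endothelial and 0.98 for epithelial markers. It was 0.48 for neutrophil, 0.41 for B and plasma cell, 0.39 for dendritic cell, 0.33 for monocyte and 0.24 for T cell and thymocyte markers, -0.10 for alveolar macrophage markers and 0.02 for the mitotic genes.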

How the data were processed

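Alveolar macrophage RNA from 4 mouse libraries was analysed, from a pool of 10 stranded mRNA libraries sequenced on one lane, per the labels. The tools named, without role or order, are STAR 2.4.1d, HTSeq 0.6.1p1, Trim Galore 0.4.0 and edgeR, per the submitters' processing notes. Genome build, annotation and strand in counting: not given in the sources used here.

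A single table of 16755 genes was deposited with a normalized signal per library, which is the read count divided by a scaling factor, per the file headers. Beside it stand the authors' log2 fold change, a standard error and a Wald score, and a p-value with its adjusted p-value, per the file headers. Whole reads were recovered for 100% of values (tolerance 0.001 reads). The depth in such reads was 41254959 and 44759630 for WT and 39980049 and 35793800 for OPNKO. A further 2 columns carry no sample label and were left aside, and 1 row has a blank symbol.

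The normalized values were tested with limma 3.58.1 (R 4.3.3, eBayes with a trend), after taking log2(value + 1). The contrast was OPNKO minus WT and there was no covariate. A mean value of 1 or more was required, which left 16431 genes, all 53 mitotic genes among them, and removed 324. Benjamini-Hochberg adjustment ran over all tested genes and the threshold was 0.05. Because 1 was added, fold changes of low genes are understated. The fit was also run on simulated counts as a check of the code. That outcome is not given here and was not used for any result. Groups came from the titles. The members and the gene lists were chosen with earlier results of these data known.

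Values per library are given for Mki67, Top2a, Cdk1 and Ccnb1, for called genes, for the 2 genes of greatest mean normalized read count (not divided by length) and the smallest p in each of 8 roles, and for the 4 most positive and 4 most negative log2 differences of OPNKO replicate 2 over replicate 1. In the other lists, up to 4 genes past the threshold are named. Exons, lengths and positions came from GENCODE M21 on GRCm38, in which 16542 of the identifiers were found. Promoter windows came from RefSeq on GRCm38.p6. Alternatives were other scalings, filters, pseudocounts, limma's prior, the replicate block, each library left out, and edgeR 4.0.16 and DESeq2 1.42.0 on recovered reads. Tables and figures were made with Python 3.11.15, pandas 2.3.3, numpy 2.4.6, scipy 1.17.1 and matplotlib 3.10.9.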

Additional observations from a re-analysis of the deposited data

How the results depend on the processing

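The count of 1 called mitotic gene, lower in OPNKO, was the same under the 3 other scalings, the stricter filter, both pseudocounts, edgeR and DESeq2. It was 0, also among genes lower in OPNKO, with no filter on low values and 0 without a trend in limma's prior. With each library left out in turn it ranged from 0 to 1, and was 0 without WT replicate 1 and without WT replicate 2. Leaving out a library leaves a lone sample of that genotype, assumed to vary like the other group. Over the whole table, 709 genes were called in the main test, 1136 by DESeq2, 1 with no filter, 0 without the trend, and 4, 11, 545 and 405 without WT replicate 1, WT replicate 2, OPNKO replicate 1 and OPNKO replicate 2. The cause of these losses was not tested. With the replicate number as a block, 1 mitotic gene and 1566 genes in all were called. Deviations of same-numbered samples had a correlation of -0.02, so the numbers were not shown to pair the samples. Between the OPNKO libraries 28 mitotic genes differed by at least 1.2-fold in either direction and 0 by 1.5-fold, and between the WT libraries 1 and 0. The sign of the fold change turned in at least 1 setting for 36 of the 53, none with a log2 fold change above 0.24 in size. With 2 libraries a genotype, small differences were not detectable: the median standard error was 0.12 on the log2 scale.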
